A study of Mus musculus with 8 samples.

Results

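The genes described here are 10 genes of the ATF4 response to amino acid and endoplasmic reticulum stress: Chac1, Trib3, Ddit3, Asns, Atf3, Atf4, Sesn2, Ddit4, Psat1 and Slc7a11. They were chosen by name, with the log2 ratios of all 8 arrays in view, as those ratios had already shown that some of them were lower after treatment and lower in macrophages. Their ratios are therefore given as a description, with no test. Through the accession of each probe, 12 of 39429 probes matched the 10 genes, which stand among 32395 gene names in all. Atf4 and Psat1 had 2 probes each and the other genes 1. Every one of the 12 probes was well above background in both channels on all 8 arrays, and 1 spot, that of Asns on the 3T3-L1 array labelled serotonin, was left out because the scanner marked it as an outlier.

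The arrays came from a transwell co-culture of 3T3-L1 pre-adipocytes, a mouse embryo fibroblast line that can become fat cells, with RAW 264.7 cells, a mouse macrophage line, harvested at 48 h. For each cell line there was 1 array of cells given 100 µM cortisol, 1 of cells given 100 µM serotonin, 1 of cells given both at that dose by the sample labels, and 1 of untreated cells. In the study's methods the harvested line grew in the lower well, so the arrays of the cell lines come from separate set-ups, and the hormone stocks were made in DMSO, while the labels name no vehicle for the untreated cells. Each array set Cy5-labelled RNA of the cells against a Cy3-labelled reference shared by all arrays. The series text calls the reference an equal mixture of the RNA of every sample, whereas the methods call it a pool of untreated adipocytes and macrophages grown alone. Subtracting the untreated array cancels the reference, and the 3 differences within a cell line then share that untreated array.

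ATF4 is a basic leucine zipper transcription factor. When amino acids run short or unfolded proteins collect in the endoplasmic reticulum, kinases phosphorylate the initiation factor eIF2, most translation slows, and the Atf4 transcript is translated better than before. ATF4 then pairs with C/EBP proteins and turns on genes for amino acid supply and glutathione, for restraint of the growth kinase complex mTORC1, and, under lasting stress, for the death-promoting factor CHOP. Because ATF4 is governed largely at translation, its transcript level alone does not report its protein.

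The element bound by ATF4 with C/EBP proteins was searched in RefSeq promoter windows (build GRCm38.p6), from 250 bases before to 50 bases after each annotated start. TGATGNAA on either strand was found in the windows of 5 of the 10 genes, and in 3.97% of all 32851 windows. These 5 are shown because they include Chac1 and Trib3, the 2 genes furthest below the untreated array on the serotonin array of 3T3-L1 cells. The capitals mark the match, each sequence runs 5′ to 3′ on the strand of its gene, and the coordinates are those of the letters printed. The match begins 193 bases before the start in Chac1 (chr2:119351013-119351092, plus strand), 14 bases after it in Trib3 (chr2:152344028-152344057, minus strand), 23 before it in Asns (chr6:7693210-7693289, minus strand) and 110 before it in Atf3 (chr1:191183400-191183479, minus strand). Slc7a11 holds a facing pair, 66 and 47 bases before its start (chr3:50443628-50443704, minus strand).
Chac1: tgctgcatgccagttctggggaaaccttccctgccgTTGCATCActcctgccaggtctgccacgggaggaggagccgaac
Trib3: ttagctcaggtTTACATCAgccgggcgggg
Asns: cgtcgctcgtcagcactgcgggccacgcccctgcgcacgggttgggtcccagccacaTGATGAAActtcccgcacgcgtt
Atf3: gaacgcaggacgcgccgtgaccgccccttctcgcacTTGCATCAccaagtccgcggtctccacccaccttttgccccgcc
Slc7a11: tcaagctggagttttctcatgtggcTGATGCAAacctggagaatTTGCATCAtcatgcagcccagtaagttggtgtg

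Chac1, Atf3 and the second site of Slc7a11 hold the same letters, TTGCATCA, which are the first site of Slc7a11 read on the other strand. No window of the 10 genes held the cAMP response element TGACGTCA, which was in 1.79% of all windows. The antioxidant response element TGACNNNGC, bound by NRF2, was in the windows of Sesn2 and Asns, 2 of 10, against 12.4% of all windows. A match of letters is not a measured site.

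Both cell lines were checked against marker lists. In Cy5, 9 to 10 of 12 fibroblast markers were well above background on each RAW 264.7 array and 12 of 12 on each 3T3-L1 array, with summed signals of 3118 to 4140 units on RAW 264.7 arrays and 280470 to 405930 on 3T3-L1 arrays, over the arrays on which every marker was measured. All 11 macrophage markers with a probe were detected on each RAW 264.7 array and 8 of 11 on each 3T3-L1 array, and their sums were 115700 to 207550 on RAW 264.7 arrays and 11603 to 22563 on 3T3-L1 arrays. In RAW 264.7 against 3T3-L1 cells without treatment, all 10 measured fibroblast markers were at least 2-fold lower and all 8 measured macrophage markers at least 2-fold higher. Cortisol is a glucocorticoid, yet 12 known glucocorticoid targets had a median log2 difference of -0.21 on the 3T3-L1 array labelled cortisol, 0.67 on the one labelled serotonin (12 genes each) and 0.77 on the one labelled cortisol-serotonin (11 genes). Of these targets, 5 of 12, 9 of 12 and 8 of 11 were above 0 in the same order. Zbtb16, a transcriptional repressor, had log2 differences of -0.19, 1.94 and 1.96 in that order, and Cdo1, which oxidises cysteine, 0.57, 2.49 and 3.01. Errfi1 had -1.59, -0.04 and -0.10, and so did not rise on any of them. Lcn2 had 0.26 with cortisol and 0.58 with serotonin, and no value with cortisol-serotonin. The data did not settle whether these 2 hormone labels were swapped, so arrays are named by their labels throughout.

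Ratios were balanced by a loess fit within each array. A log2 ratio of 0 thus means that a gene stood level with the typical gene of its brightness, cells against reference. The percentages of the reference below are on this scale and are not absolute amounts. The cells were in Cy5 on every array, so an effect of the dye on a gene cannot be told apart from its level. As read against the reference, Chac1, Ddit3, Asns and Atf3 were low in both cell lines, as the plot of ratios by array shows. Chac1, which encodes an enzyme that breaks down glutathione, ran at 9.90% to 14.8% of the reference on the treated arrays of 3T3-L1 cells, against 25.6% on the untreated one. On RAW 264.7 arrays it ran at 5.52% to 9.07% with treatment, against 7.48% without. Among 10995 genes measured on all 8 arrays, 3 had a mean linear ratio at or under that of Chac1, itself included, which was 0.119. Ddit3, which encodes CHOP, had a mean of 0.219. Asns averaged 0.412 over 7 arrays and Atf3 0.440. Thus 4 of the 10 genes had a mean under 0.5, where 1.67% of the 10995 genes did. Asns, which had no value on the 3T3-L1 array labelled serotonin, was not among those 10995. The median gene had a mean of 1.01, and an equal mixture of all samples would give each gene a mean of 1. At the other end, the cystine transporter gene Slc7a11 averaged 1.36 and Sesn2 1.15. Why these 4 genes lay below the reference on every array with a value was not tested.

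**Figure D1:**
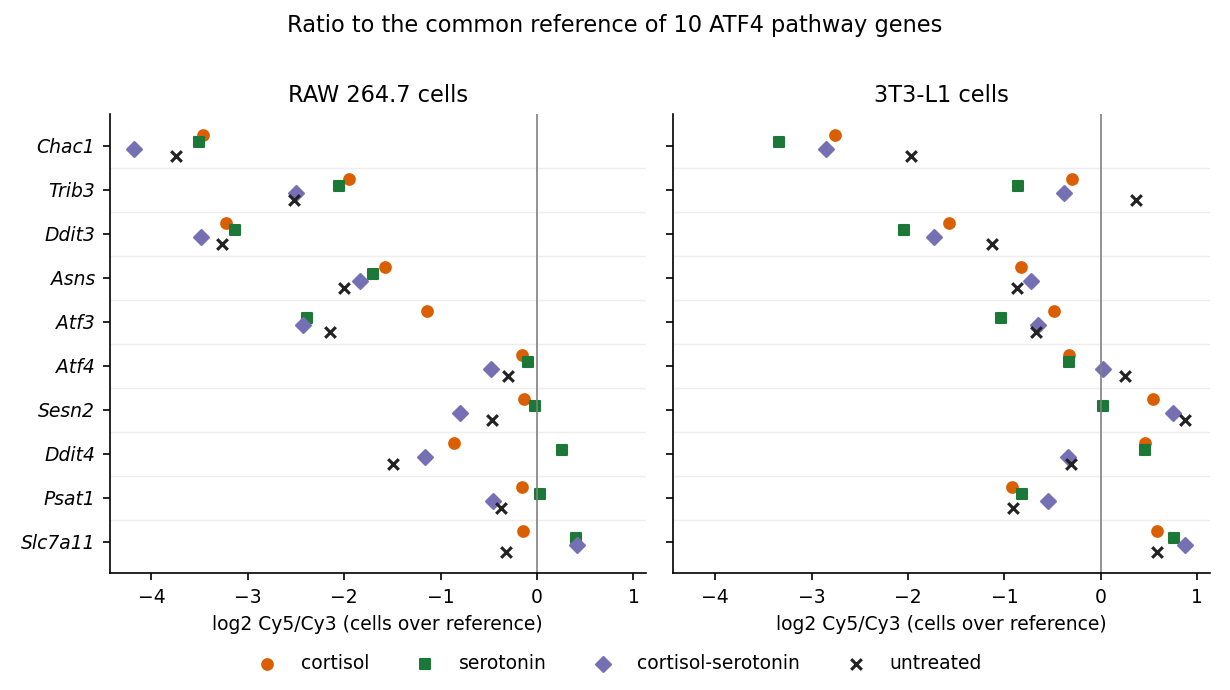
Each point is the log2 ratio of Cy5 (cells) to Cy3 (common reference) of 1 gene on 1 array, for RAW 264.7 cells on the left and 3T3-L1 cells on the right, with a symbol for each treatment and the untreated array. The line at 0 is the level of the reference after the loess fit. Chac1 lay between -4.18 and -1.97 on all 8 arrays, and Trib3 was above 0 on the untreated 3T3-L1 array alone.

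The first question was what each hormone did to these genes in pre-adipocytes. Chac1, Trib3, Ddit3, Atf4 and Sesn2 lay below the untreated array on all 3 treated arrays. They were 5 of the 9 genes measured on all of these arrays, and 28.0% of 12964 genes did the same. The genes of amino acid supply, Asns, Psat1 and Slc7a11, stayed within 0.36 of the untreated array, with no Asns value on the array labelled serotonin. A change was counted from 2-fold upwards, a size the study also used to list changed genes, and the error given combines, over both arrays, the uncertainty that the scanner's software attaches to each spot's ratio. It covers technical noise on the arrays, not the spread between cultures, which 1 array per condition cannot give. These are bulk measurements, in which a lower share of cells with a transcript and less of it per cell cannot be told apart.

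On the array labelled serotonin, 2 of 9 measured genes, Chac1 and Trib3, were at least 2-fold lower than in untreated 3T3-L1 cells, and none was at least 2-fold higher. Of all 13177 genes measured there, 0.751% were that much lower and 0.516% that much higher. Trib3 encodes a pseudokinase that binds ATF4 and AKT and damps both. Its log2 ratios were -0.30 with cortisol, -0.86 with serotonin and -0.38 with cortisol-serotonin, against 0.37 untreated. The untreated array thus stood above each treated array by at least 0.67. The difference on the serotonin array was -1.23 (error 0.30), a 2.34-fold lower level. Chac1 had log2 ratios of -2.76, -3.34 and -2.85 in the order cortisol, serotonin and cortisol-serotonin, against -1.97 untreated. Its serotonin value was again the lowest of the 4, 2.59-fold below the untreated array (log2 difference -1.37, error 0.46). Among the falls on this array Chac1 ranked 24 and Trib3 42 of 13177 genes, ranks that come from the ratios by which the genes were chosen.

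The transcription factors of the pathway did not move alike. Ddit3 had log2 ratios of -1.57, -2.05 and -1.73 with cortisol, serotonin and cortisol-serotonin, against -1.13 untreated, so that the serotonin difference was -0.92 (error 0.35). Atf4 had -0.33, -0.33 and 0.02, against 0.25 untreated. Its 2 probes differed in size but not in sign, with serotonin differences of -0.31 and -0.85. Atf3, a repressor of the same protein family that stress induces early, had -0.49, -1.04 and -0.65, against -0.68, and its treated arrays fell on both sides of the untreated one.

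Sesn2 and Ddit4 both encode inhibitors of mTORC1, and their signs differed where 1 hormone was given. Sesn2, whose protein senses leucine, had log2 ratios of 0.54, 0.02 and 0.74 with cortisol, serotonin and cortisol-serotonin, against 0.87 untreated, with a serotonin difference of -0.85 (error 0.30). Ddit4, a transcript that glucocorticoids and low oxygen are also known to raise, had 0.46, 0.46 and -0.34, against -0.30. The arrays labelled cortisol and serotonin were thus above the untreated one by 0.77 and 0.76 (error 0.29 each), whereas the array with both hormones differed from it by -0.03.

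The genes of amino acid supply had no difference beyond 2 errors in 3T3-L1 cells. Asns, asparagine synthetase, had log2 ratios of -0.83 with cortisol and -0.72 with cortisol-serotonin, against -0.87 untreated, and was not measured with serotonin. Psat1, an enzyme of serine synthesis, had -0.92, -0.82 and -0.55 with cortisol, serotonin and cortisol-serotonin, against -0.91. Slc7a11, which brings in cystine for glutathione, had 0.58, 0.76 and 0.88, against 0.59. The largest of these differences, 0.36 for Psat1 with cortisol-serotonin, had an error of 0.21.

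No gene of the 10 passed 2-fold in 3T3-L1 cells with cortisol or with both hormones. On the cortisol array 0.388% of 13146 genes rose and 1.26% fell by that much, and on the cortisol-serotonin array 0.784% of 13145 genes rose and 0.631% fell. A less strict count took differences of at least 2 errors in either direction. By this count 3 of 10 genes differed on the cortisol array (Trib3, Atf4 and Ddit4), where 11.0% of all genes did. On the serotonin array 6 of 9 did (Chac1, Trib3, Ddit3, Atf4, Sesn2 and Ddit4), beside 7.16% of all genes, and on the cortisol-serotonin array 2 of 10 (Chac1 and Trib3), beside 6.47%. The medians over the measured genes were -0.17, -0.58 and -0.08 with cortisol, serotonin and cortisol-serotonin, where those of all genes were 0.00, 0.01 and 0.02. Chac1 was higher on the array labelled cortisol-serotonin than on the one labelled serotonin by 0.49 (error 0.50). Trib3 was higher there by 0.48 (error 0.30) and Sesn2 by 0.72 (error 0.30), and Ddit4 was lower by 0.80 (error 0.29).

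Macrophage markers moved on the same arrays. Of 8 measured in 3T3-L1 cells, all 8 were below the untreated array on the one labelled serotonin, with a median log2 difference of -0.50, and 7 of 8 on the one labelled cortisol-serotonin, with a median of -0.37. On the cortisol array 6 of 8 were below it and the median was -0.12. Their part in the values of Chac1 and Trib3 was not tested. The way in which the dyes were balanced also mattered. With each array centred on its median in place of the loess fit, the median of all genes shifted by 0.61, 1.09 and 1.01 with cortisol, serotonin and cortisol-serotonin. Relative to that median Chac1 had -0.52, -1.09 and -0.74 and Trib3 -0.23, -0.87 and -0.53, while without that reference point neither was below the untreated array.

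**Figure D2:**
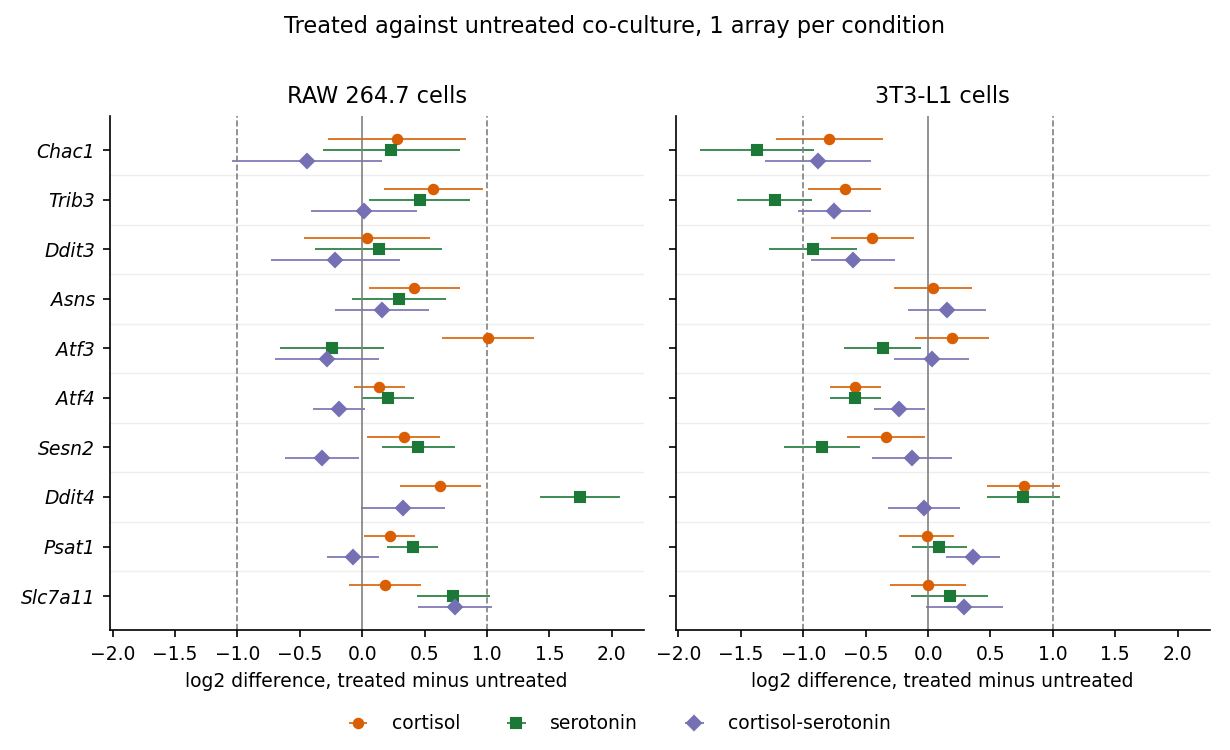
Points give the log2 difference of each treated array from the untreated array of its own cell line, for RAW 264.7 cells on the left and 3T3-L1 cells on the right, with bars for the error that the scanner software gives and dashed lines at a 2-fold change. On the serotonin arrays Chac1 and Trib3 lay past the lower line in 3T3-L1 cells (-1.37 and -1.23, by loess but not by median centring), and Ddit4 lay past the upper line in RAW 264.7 cells (1.74).

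In the macrophages most of the genes lay above the untreated array when 1 hormone was given. On the array labelled cortisol all 10 genes had values above the untreated array, with a median of 0.30, and on the array labelled serotonin 9 of 10 did, with a median of 0.35. The corresponding medians of all genes were 0.02 and -0.04, and 56.5% and 41.7% of all genes were above 0. On the array with both hormones the median was -0.13 and 4 of 10 genes were above 0. The median of all genes there was -0.01, and 48.7% of them were above 0.

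Ddit4 gave the largest of them. Its log2 ratios in RAW 264.7 cells were -0.86 with cortisol, 0.25 with serotonin and -1.16 with cortisol-serotonin, against -1.49 untreated. The serotonin array stood apart from the other 3, at 3.35-fold the untreated level (log2 difference 1.74, error 0.32), with rank 10 among the rises of 12267 genes. On the array with both hormones Ddit4 was 2.67-fold lower than on the array labelled serotonin (log2 difference -1.42, error 0.31). It was the single gene of 10 past 2-fold on the serotonin array, where 0.522% of all genes rose and 0.245% fell that far. Fibroblast markers were also higher there, 9 of 9 measured, with a median of 0.64 and Col3a1, a fibrillar collagen, at 2.0. With cortisol and with both hormones the fibroblast medians of RAW 264.7 cells were 0.20 over 9 genes and 0.36 over 8. What part the source of the fibroblast transcripts had in the Ddit4 value was not tested.

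Atf3 was the single gene past 2-fold on the RAW 264.7 array labelled cortisol. It had log2 ratios of -1.14, -2.38 and -2.43 with cortisol, serotonin and cortisol-serotonin, against -2.14 untreated. The cortisol array was thus the only one above the untreated array, by 1.01 (error 0.37), a 2.01-fold difference that lies at the threshold. This array was close to the untreated one over all genes, with 0.032% of 12499 genes rising and 0.032% falling 2-fold or more, and Atf3 had rank 4 among its rises. With both hormones Atf3 was 2.44-fold lower than on the array labelled cortisol (log2 difference -1.29, error 0.37).

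Trib3, Sesn2 and Asns had values above the untreated array on both single-hormone arrays. For Trib3 the ratios in RAW 264.7 cells were -1.95, -2.05 and -2.50 with cortisol, serotonin and cortisol-serotonin, against -2.52 untreated, and the differences were 0.57, 0.46 and 0.02 (errors 0.40 to 0.42). Sesn2 had -0.14, -0.02 and -0.79, against -0.47. With both hormones Sesn2 was therefore the lowest of its 4 values, and 0.77 below the serotonin array (error 0.30). Asns had -1.58, -1.70 and -1.84, against -2.0, the largest difference being 0.42, with errors of 0.37 to 0.38. The Asns spot was dim in both channels on the serotonin array, with 1393 units in Cy5 and 5887 in Cy3, against 5783 and 26743 on the untreated array.

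Of the remaining genes, Slc7a11 differed most from untreated macrophages. Its ratios were -0.14, 0.40 and 0.42 with cortisol, serotonin and cortisol-serotonin, against -0.33. The arrays labelled serotonin and cortisol-serotonin thus lay above both others, by 0.73 and 0.74 over the untreated one (error 0.29 each). Psat1 had -0.16, 0.03 and -0.45, against -0.38, with a serotonin difference of 0.41 (error 0.21). Atf4 itself had -0.16, -0.09 and -0.48, against -0.30, a range of less than 0.4 over the 4 arrays. Ddit3 had -3.23, -3.14 and -3.48, against -3.27, and Chac1 -3.46, -3.51 and -4.18, against -3.74. The Chac1 and Ddit3 differences, from -0.44 to 0.28, were each smaller than their errors of 0.51 to 0.60.

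On the cortisol-serotonin array of RAW 264.7 cells none of the 10 genes passed 2-fold, beside 0.178% of 12328 genes that were higher and 0.073% that were lower by that much. Of 10 macrophage markers, Spi1 (-1.21) and Itgam (-1.05) were at least 2-fold lower there, and their part in the values of the 10 genes was not tested. Differences of at least 2 errors numbered 1 of 10 on the cortisol array (Atf3), beside 0.384% of all genes. They numbered 2 of 10 on the serotonin array (Ddit4 and Slc7a11), beside 2.06%, and 1 of 10 on the cortisol-serotonin array (Slc7a11), beside 1.43%.

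RAW 264.7 cells were next compared with 3T3-L1 cells under the same label. Without treatment 7 of the 10 genes were at least 2-fold lower in RAW 264.7 cells and none was at least 2-fold higher. Between these lines 17.1% of 12951 genes were at least 2-fold lower and 15.3% at least 2-fold higher, so large differences were common. Trib3 differed most, 7.39-fold lower (log2 difference -2.88, error 0.36), and Ddit3 was 4.41-fold lower (-2.14, error 0.42). Chac1 (-1.77), Atf3 (-1.47), Sesn2 (-1.34), Ddit4 (-1.19) and Asns (-1.13) were the other 5. Psat1 alone was higher in RAW 264.7 cells, by 0.53 (error 0.21). All 10 differences were at least 2 errors from 0, where 52.1% of all genes were. Slide and cell line coincide, so that slide and line cannot be told apart. With median centring the median of all genes shifted by 0.84, and relative to it 5 of the 7 were at least 2-fold lower (Trib3, Ddit3, Chac1, Atf3 and Sesn2).

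The gap between the lines was narrower on both single-hormone pairs than without treatment for Trib3, Chac1, Sesn2, Ddit3, Atf3 and Slc7a11. It was also narrower for Atf4, with a change of sign, and for Asns with cortisol, where serotonin had no value. For Psat1 it was wider on both pairs, and for Ddit4 it was wider with cortisol. The share of all genes with a narrower gap was not counted. Trib3 differed between RAW 264.7 and 3T3-L1 cells by -1.65 on the arrays labelled cortisol, -1.19 with serotonin and -2.12 with cortisol-serotonin, and by -2.88 untreated. Chac1 differed by -0.71, -0.17 and -1.33 in that order, and by -1.77 untreated. Its serotonin gap was smaller than its error of 0.53. Sesn2 differed by -0.68, -0.04 and -1.54, and by -1.34 untreated, so that on the serotonin arrays its gap was within its error of 0.29. Over all pairs with a value, 8 of 10 genes were lower in RAW 264.7 cells each time, as were 39.2% of the 11036 genes measured on all 4 pairs. Psat1 was higher in RAW 264.7 cells on all 4 pairs, as were 37.9% of genes, and Atf4 was higher with cortisol (0.17) and serotonin (0.24) and lower with cortisol-serotonin (-0.50) and untreated (-0.55).

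**Figure D3:**
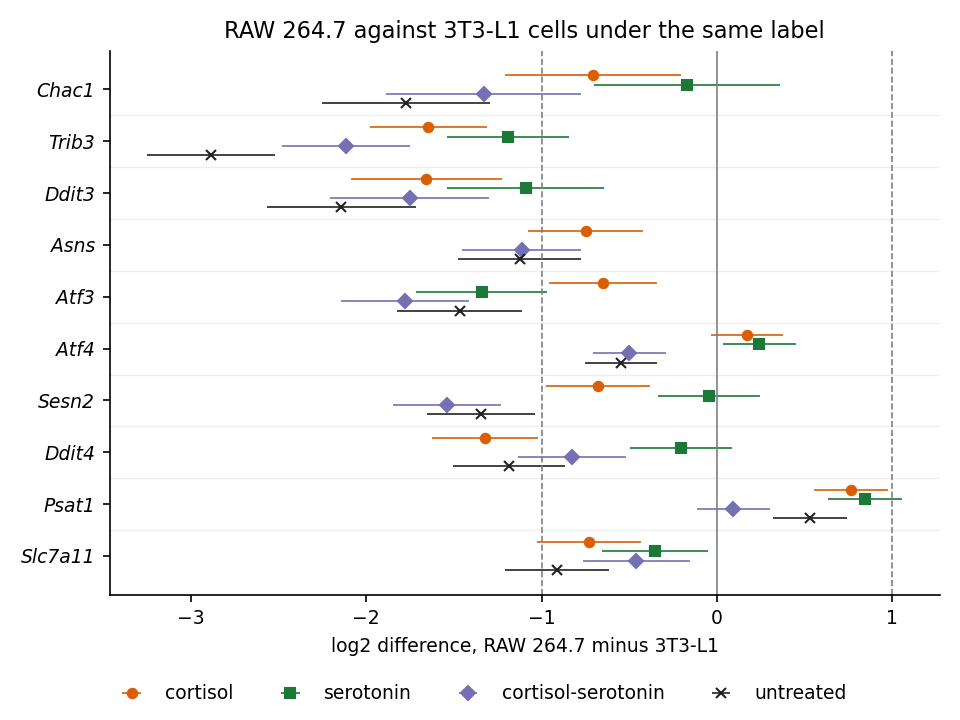
Points give the log2 difference of RAW 264.7 minus 3T3-L1 cells between arrays of the same label, with bars for the error of the scanner software and dashed lines at a 2-fold difference. Untreated cells (crosses) had the widest gap for Trib3, at -2.88, and Psat1 lay to the right of 0 on all 4 pairs.

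Other genes of the pathway and its neighbours were described by lists, whose medians are plotted by array. Of 16 other ATF4 targets measured in 3T3-L1 cells, 1 fell at least 2-fold on the serotonin array, namely Ndrg1, a stress-responsive gene that low oxygen also raises (log2 difference -1.25, error 0.82), and the median was -0.16. Their medians were 0.11 with cortisol and -0.11 with cortisol-serotonin in 3T3-L1 cells, and 0.33, 0.16 and -0.08 over 13 genes in RAW 264.7 cells. Without treatment, 8 of 13 of these targets were at least 2-fold lower in RAW 264.7 than in 3T3-L1 cells and 4 at least 2-fold higher, with a median of -1.27, and the median of the 10 genes rounded to the same value. Upstream of ATF4, none of 8 transcripts of eIF2, its kinases and the phosphatase subunits changed 2-fold on any treated array, and the list's medians lay between -0.16 and -0.06. Eif2ak4, the kinase that senses uncharged tRNA, had 0.38 with serotonin in 3T3-L1 cells, and Ppp1r15a, which recruits the phosphatase and is itself an ATF4 pathway target, had -0.26. Among up to 9 measured partners of the same protein family, whose medians were -0.26 to 0.03, none changed 2-fold. Cebpb, a partner with which ATF4 binds its element, had -0.81 on the serotonin array of 3T3-L1 cells.

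Lists of amino acid handling had medians from -0.11 to 0.20 on the treated arrays. The serine, one-carbon, proline and aspartate synthesis genes (13 measured) had medians of 0.20, -0.05 and 0.09 with cortisol, serotonin and cortisol-serotonin in 3T3-L1 cells and 0.19, 0.10 and -0.09 in RAW 264.7 cells. Amino acid transporters (11 measured) had medians from -0.11 to 0.08 over the 6 comparisons and aminoacyl-tRNA synthetases (17 to 20 measured) from -0.10 to 0.12. No gene of these 3 lists changed 2-fold on a treated array. The targets of the other arms of the unfolded protein response, IRE1-XBP1 and ATF6, had medians from -0.19 to 0.07, and none changed 2-fold either. Untreated RAW 264.7 cells exceeded untreated 3T3-L1 cells at least 2-fold for 7 of 19 of them and for none were they that much lower, unlike the 10 genes.

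Other stress programmes that share targets with ATF4 were set beside them. NRF2 targets had medians of 0.28, -0.18 and -0.45 with cortisol, serotonin and cortisol-serotonin in 3T3-L1 cells and of -0.01, 0.17 and -0.02 in RAW 264.7 cells. The medians of p53 targets lay between -0.14 and 0.17 and those of hypoxia targets between -0.24 and 0.17, again with no gene changed 2-fold. Regulators of mTORC1 had medians of 0.20, 0.34 and 0.51 in 3T3-L1 cells, and Flcn, which acts on the lysosomal GTPases of that complex, was 2.13-fold higher on the cortisol-serotonin array (log2 difference 1.09, error 0.22). In RAW 264.7 cells their medians were 0.07, -0.03 and 0.05. Glucocorticoid targets had medians of -0.21, 0.35 and 0.09 in RAW 264.7 cells, where 2 of 10 were at least 2-fold higher on the array labelled serotonin, Lcn2 (1.63) and Mt2 (1.01). Ddit4 had its highest RAW 264.7 ratio on that same array. In 3T3-L1 cells Ddit4 differed by 0.77, 0.76 and -0.03 with cortisol, serotonin and cortisol-serotonin. The medians of glucocorticoid targets there were -0.21, 0.67 and 0.77 in the same order. A link between Ddit4 and these targets was not tested.

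**Figure D4:**
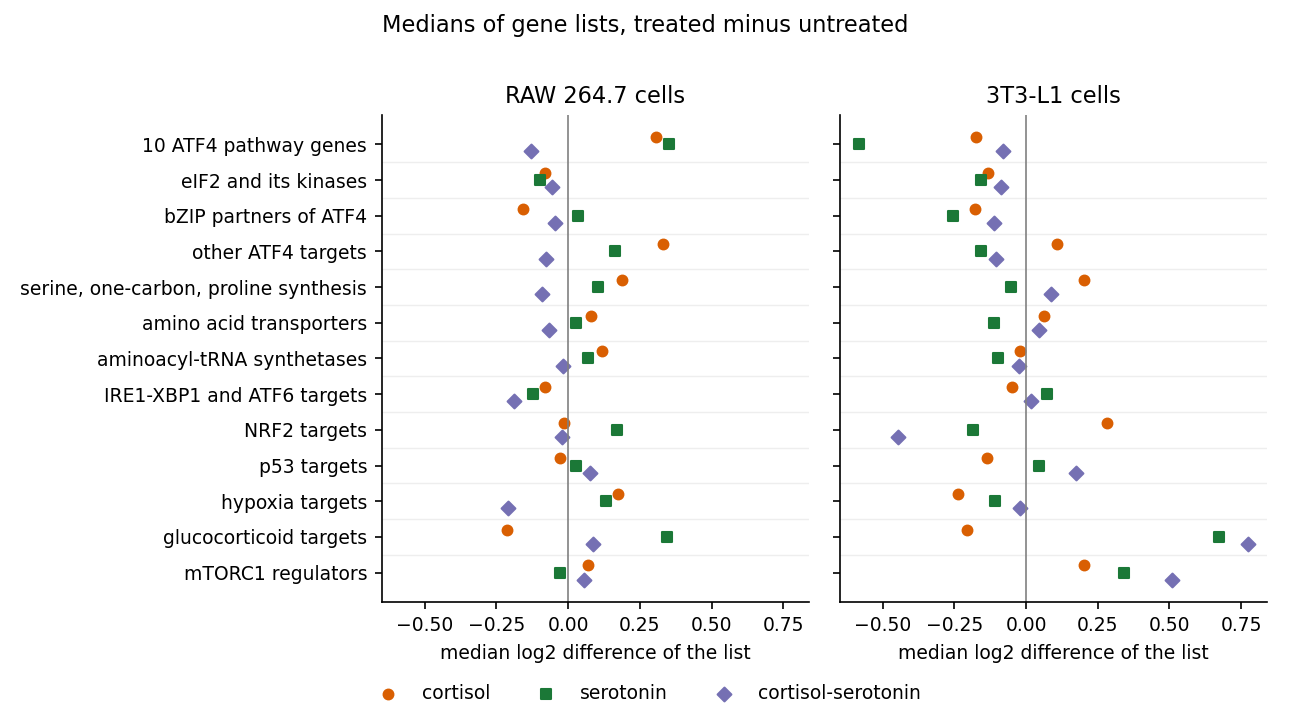
Points give the median log2 difference, treated minus untreated, of each gene list on each treated array, for RAW 264.7 cells on the left and 3T3-L1 cells on the right. On the serotonin array of 3T3-L1 cells the ATF4 pathway genes, chosen with these ratios in view, had a median of -0.58 and the glucocorticoid targets 0.67. Macrophage markers, which are not plotted, had -0.50 there.

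Among themselves the genes fell into a group that moved together and others that did not. After each gene was centred on the mean of its cell line, Chac1, Trib3 and Ddit3 had Pearson's r of 0.93 to 0.97 with each other over the 8 arrays, and both Atf4 (0.78 to 0.86) and Sesn2 (0.81 to 0.87) were close to these 3. Ddit4 had r between -0.07 and 0.02 with the same 3 genes and Slc7a11 between -0.34 and -0.14. The arrays share a reference and, within a line, a slide, so these values are a description.

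Genes outside the pathway with the most similar pattern were sought among the 81 genes measured on all 8 arrays whose centred values had an SD of at least 0.5. The likeness was r with the mean of the 9 genes measured on all arrays. The mean profile was lowest on the 3T3-L1 array labelled serotonin (-0.25) and the RAW 264.7 array labelled cortisol-serotonin (-0.24), and highest on the RAW 264.7 array labelled serotonin (0.26). Fgfr1, a receptor of fibroblast growth factors, was most alike (r = 0.76), followed by Podnl1 (0.74) and Col3a1 (0.71). The others of the first 10 were C1s2, Plcd1, Slfn8, Iglon5 and Rgs1, with r of 0.50 to 0.66, and 2 probes with no gene name in the table used. Fgfr1 and Col3a1 stood 2.16 and 2.0 above the untreated array on the RAW 264.7 array labelled serotonin and within 0.36 of it on each 3T3-L1 array. On that array the fibroblast markers, Col3a1 among them, were also higher.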

How the data were processed

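The study measured RNA of 3T3-L1 and RAW 264.7 cells on 8 two-colour Agilent mouse arrays, 1 per condition, grouped by the sample labels. The deposited scanner files, made by the authors with Agilent Feature Extraction 10.5.1.1, hold median signal and background intensity per spot in Cy5 and Cy3, and processed signal intensities with a log10 ratio and its error. The authors' deposited series matrix repeats the log10 ratio, within 0.005 for all spots, with scale and direction (Cy5 over Cy3) thereby known and a median of 0 per array. Log2 values were computed here from the deposited intensities.

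Background was corrected by normexp (offset 50) and ratios were normalised within arrays by loess in limma 3.58.1 (R 4.3.3), checked on simulated data. Control spots and those the scanner marked as outliers were left out. Accessions named 27508 of 39429 probes (69.8%) through a RefSeq table (GRCm38.p6, for names only), and the other names are the files'. Gene values averaged probes that exceeded background clearly in Cy5 and Cy3 on the 4 arrays of a line, or on both arrays in comparisons between lines. The lowest correlation of ratios between arrays was -0.23. No spot was saturated. Precision is limited by array number, and with 1 per condition no p-value was computed. Slide position and treatment cannot be told apart, as a given treatment lay at 1 place on either slide.

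The 10 genes and the 14 other lists (184 genes) were chosen with earlier results of these data known. Text names all 10 genes, up to 4 genes of a list that changed 2-fold in any treated comparison, the 10 genes most like the mean of the 10, and, outside this rule and after their values were seen, Eif2ak4, Ppp1r15a, Cebpb and Mt2. Promoter windows were taken from RefSeq. Alternatives were other dye balancing, background correction, filters, probe choice, threshold and, added after seeing the data, outlier spots kept.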

Additional observations from a re-analysis of the deposited data

Results flagged for a closer look

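Trib3 differed from untreated cells in one direction on all 3 treated arrays of RAW 264.7 cells and in the other on all 3 of 3T3-L1 cells, which is why it is listed here. It was the only 1 of the 9 genes measured throughout to do so, and 12.5% of 11030 genes did. Its log2 differences with cortisol were 0.57 in RAW 264.7 cells and -0.67 in 3T3-L1 cells. With serotonin they were 0.46 in RAW 264.7 cells and -1.23 in 3T3-L1 cells, and with cortisol-serotonin 0.0175 in RAW 264.7 cells and -0.75 in 3T3-L1 cells. The cortisol-serotonin value of RAW 264.7 cells is far smaller than its error of 0.42, and it was -0.03 with the scanner software's processed signals, -0.10 with median centring and -0.25 with Cy5 alone. The 3 differences of a line share 1 untreated array, and the difference between the lines was not tested.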

How the results depend on the processing

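Of 4 differences of at least 2-fold between treated and untreated arrays, all 4 kept their size and direction under processed signals, series matrix values, no background correction, offset 16, either other filter, the brightest probe and outlier spots kept. With median centring, 1 of the 4 did. The counts of genes changed at least 2-fold in 3T3-L1 cells then became 2 with cortisol, 3 with serotonin and 5 with cortisol-serotonin, all higher. Of all genes, 19.2%, 57.6% and 50.5% passed 2-fold there in either direction. The count was 0 with cortisol in RAW 264.7 cells, beside 0.104% of all genes. Between untreated RAW 264.7 and 3T3-L1 cells it was 3, beside 50.2%. On the 3T3-L1 array labelled serotonin, Chac1 then had 0.0004 and Trib3 0.22 in place of a fall, while the median of all genes was 1.09 and Ddit4 lay 1.22 above that median. The Atf3 difference with cortisol in RAW 264.7 cells was 0.93 with median centring and 0.95 with Cy5 alone, against 1.01. With Cy5 alone the count was 1 with serotonin in 3T3-L1 cells, beside 3.16% of all genes. In RAW 264.7 cells it was 0 with cortisol, beside 0.736%, and 4 with serotonin, beside 8.27%. Of these 4, Chac1, Ddit4 and Slc7a11 were higher and Asns lower. At 1.5-fold the counts were 3 with cortisol, 5 with serotonin and 3 with cortisol-serotonin in 3T3-L1 cells, beside 11.3%, 8.32% and 7.68% of all genes. In RAW 264.7 cells they were 2, 2 and 1, beside 0.664%, 3.59% and 2.08%, since more genes pass a lower threshold. The other causes were not tested.

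Leaving out a replicate was impossible with 1 array per condition. No paired analysis was possible because no group has replicates. Culture-to-culture spread is unknown, and errors near 0.5 for Chac1 and Ddit3 limit what their differences in RAW 264.7 cells can show.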
